A study of Mus musculus with 12 samples.

Results

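A set of 6 genes of liver fatty acid handling was followed over 12 Affymetrix Murine 430 2.0 arrays of mice with a hypomorphic mutation of PGC-1beta, the transcriptional coactivator encoded by Ppargc1b. The 6 genes were Vnn1, Ehhadh, Hsd17b4, Fabp1, Acaa1b and Acot1, taken by symbol out of 18193 genes on the array. They were read by 9 probe sets that list a single symbol: Vnn1, Hsd17b4 and Fabp1 had 2 each, and Ehhadh, Acaa1b and Acot1 had 1 each. The 4 groups were liver of PGC-1beta mutant mice, liver of control mice, quadriceps muscle of mutants and quadriceps muscle of controls, each with 3 arrays and all labelled C57BL/6. The labels give no sex, age, feeding state or pooling. They do not say that samples come from separate mice, so the spread behind every p-value may be technical.

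PPARalpha is a nuclear receptor that binds fatty acids and, as a partner of RXR, sits on direct repeats of the hexamer AGGTCA in the DNA of its target genes. In liver its targets carry fatty acids to the peroxisome and mitochondrion and burn them there, chiefly in fasting. Peroxisomes shorten very long, branched and dicarboxylic fatty acids: an oxidase takes the first step, the bifunctional enzymes made by Ehhadh and Hsd17b4 take the middle steps, and a thiolase such as that of Acaa1b cuts off acetyl-CoA. Acot1 is a cytosolic thioesterase that frees fatty acids from coenzyme A, Fabp1 is the liver fatty acid binding protein, and Vnn1 is a pantetheinase that breaks down pantetheine, a product of coenzyme A. PGC-1beta is known as a coactivator of nuclear receptors that act on such genes.

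Intensities are the linear probe set values deposited by the authors, or those values after quantile normalisation within a tissue, and each sentence names which. Differences are log2 values of mutant minus control on log2(intensity + 16) with their standard error (SE), so the changes of dim genes are understated. Adjusted p-values are limma's, by the Benjamini-Hochberg method across the genes tested, and a gene passed below 0.05. Each gene is represented by its brightest probe set unless another is named. In bulk tissue, fewer cells of a type and less RNA per cell cannot be told apart.

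The arrays of a tissue correlated with r of 0.943 to 0.960 in liver and 0.962 to 0.971 in muscle. Liver mutants 1 and 3 stood apart in RNA quality, where the mean log2 ratio between the 3′ and the 5′ control probe sets was 1.90 and 1.87, against 0.904 in liver mutant 2 and 0.496 to 0.965 in liver controls. The liver calls made per gene are also given without these 2 arrays. Of the hepatocyte markers, Alb had a deposited intensity of 12928.4 to 13347.7 in mutant livers and 12613.2 to 13462.8 in control livers, and of the muscle markers Acta1 had 11136.5 to 11665.9 in mutant muscles and 10726.3 to 11536 in control muscles. The summed normalised intensity of the 8 measured hepatocyte markers was 81327 to 86146 in mutant livers and 87627 to 88386 in control livers. Their deposited sum ran the other way, at 87188 to 88219 in mutant livers and 79314 to 87352 in control livers. Ppargc1b itself differed by -0.28 (SE 0.32) in liver and by 0.056 (SE 0.17) in muscle, with overlapping groups in both. Its sign in liver turned without liver mutants 1 and 3 (0.22) and with RNA quality in the fit (0.43).

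Promoters of 4 of the 6 genes, Ehhadh, Fabp1, Acaa1b and Acot1, were examined. They came from RefSeq's promoter table (GRCm38.p6, from 250 bases before to 50 bases after the start of transcription). No result is given for the promoters of the other members. Among those examined, that of Fabp1 is shown because it holds a close match to the repeat that PPARalpha is known to bind. The Fabp1 promoter lies at chr6:71199629-71199928 on the plus strand, with the match in capitals:
Fabp1: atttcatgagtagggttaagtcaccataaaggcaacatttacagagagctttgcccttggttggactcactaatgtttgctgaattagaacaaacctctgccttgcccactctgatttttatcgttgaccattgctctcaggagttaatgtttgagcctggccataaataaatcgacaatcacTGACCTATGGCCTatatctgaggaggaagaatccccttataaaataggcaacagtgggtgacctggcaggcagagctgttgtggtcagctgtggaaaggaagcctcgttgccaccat
The repeat searched, on both strands, was AGGTCA followed by any base (N) and a second AGGTCA. Read on the minus strand, the match is AGGCCATAGGTCA, which differs from the repeat by T4C, counted from 1 at the 5′ end of the repeat, and it covers bases -67 to -55 from the start. At most 1 difference from the repeat was found in 182 of 32851 promoters in the table, or 0.554%, and at most 2 differences in 3.86%. The promoters of Ehhadh, Acaa1b and Acot1 held no match with up to 2 differences in these 300 bases. The hexamer AGGTCA itself occurred in 16.3% of all promoters, with 2 copies in that of Fabp1 and 0 in those of the other three. A match of letters is a description of the sequence and says nothing on binding in these livers.

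In control mice all 6 genes were far brighter in liver than in quadriceps muscle. Deposited intensity of Fabp1 averaged 15929 ± 1005 in control livers and 8.27 ± 6.14 in control muscles (SD, n = 3 each). Deposited intensity of Acaa1b averaged 8327 ± 270 in control livers and 9.63 ± 3.00 in control muscles, a ratio of 864. Deposited intensity of Acot1 averaged 486 ± 69.6 in control livers and 4.17 ± 1.72 in control muscles. All 3 genes were near the bottom of the muscle arrays, at percentiles 8.52 to 20.3 of all genes, so a ratio against muscle is set mostly by the dim end of the scale.

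The other members stood higher in control muscles, at percentiles 31.5 for Vnn1, 49.7 for Ehhadh and 84.6 for Hsd17b4. Vnn1 was still dim there, with deposited intensities of 6.4 to 27.2. Ehhadh had a mean deposited intensity of 1615 ± 452 in control livers and 35.5 ± 4.54 in control muscles. For Vnn1 the deposited means were 563 ± 72.9 in control livers and 16.6 ± 10.4 in control muscles. Hsd17b4 had the smallest ratio of deposited means of the 6, with 2763 ± 387 in control livers and 242 ± 13.3 in control muscles, a ratio of 11.4. On the log2 scale limma gave adjusted p of 2.56e-10 or less for all 6. The size of the log2 gap depended on the offset: over the alternatives it ran from 7.79 to 10.96 for Fabp1, 6.83 to 9.65 for Acaa1b, 4.04 to 5.44 for Ehhadh, 3.00 to 6.61 for Acot1, 2.96 to 5.20 for Vnn1 and 2.72 to 3.50 for Hsd17b4. The ranges of Fabp1 and Acaa1b overlapped each other and lay above all the rest. Among the rest the ranges overlapped, except that Ehhadh stayed above Hsd17b4, so they do not settle that order. Of all 14677 genes tested, 43.1% were called higher in control liver, 47.4% had every control liver array above every control muscle array, and 7.04% had a liver mean at least 10 times the muscle mean, as all 6 members had. The split of all calls between tissues depended on scaling, with 6324 higher and 2155 lower in liver as deposited but 3862 higher and 4167 lower after quantile normalisation over both tissues; the 6 members were higher in liver under each of the 16 alternatives tried.

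**Figure D1:**
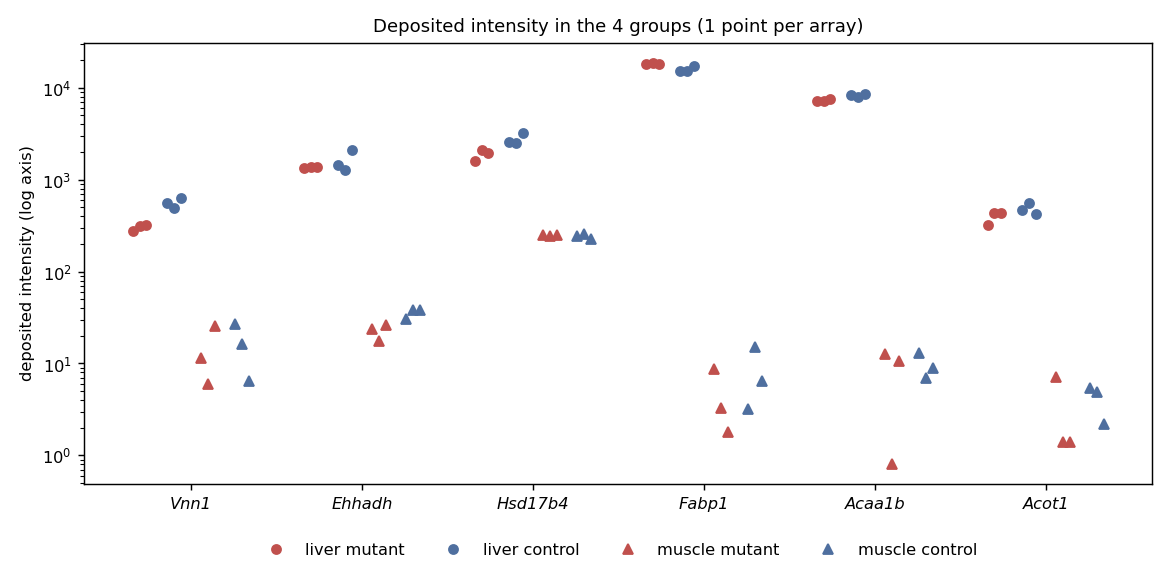
Deposited intensity (log axis) of the 6 genes, 1 point per array, for mutant liver, control liver, mutant muscle and control muscle. All liver points of a gene lie above all of its muscle points, and Hsd17b4 is the gene with muscle values above 200 on every array.

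The mutant livers had lower Vnn1, Hsd17b4 and Acaa1b. Of the 6 genes 3 fell and 0 rose, beside 3.37% of 13327 genes that passed in liver, made up of 1.04% that fell and 2.33% that rose. Mutant means were below control means for 5 of the 6, and for 6506 of the 13327 genes tested. The median log2 difference was -0.38 for the 6, against 0.01 for all genes tested. The median of the 6 was -0.25 as deposited and -0.25 with median centring. In 4 of the 6 (Vnn1, Ehhadh, Hsd17b4 and Acaa1b) every mutant array lay below every control array, which was so for 11% of all genes. Without liver mutants 1 and 3, which leaves a single mutant array assumed to vary like the controls, 0 of the 6 passed and 5 of 6 means were still lower, with a median of -0.39. Under that setting 0 genes passed in all, while 1091 had an unadjusted p under 0.05. Leaving out 1 array in turn, 0 of the 6 passed without liver mutant 1, liver mutant 3 or any of the 3 controls, and 3 passed without liver mutant 2.

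**Figure D2:**
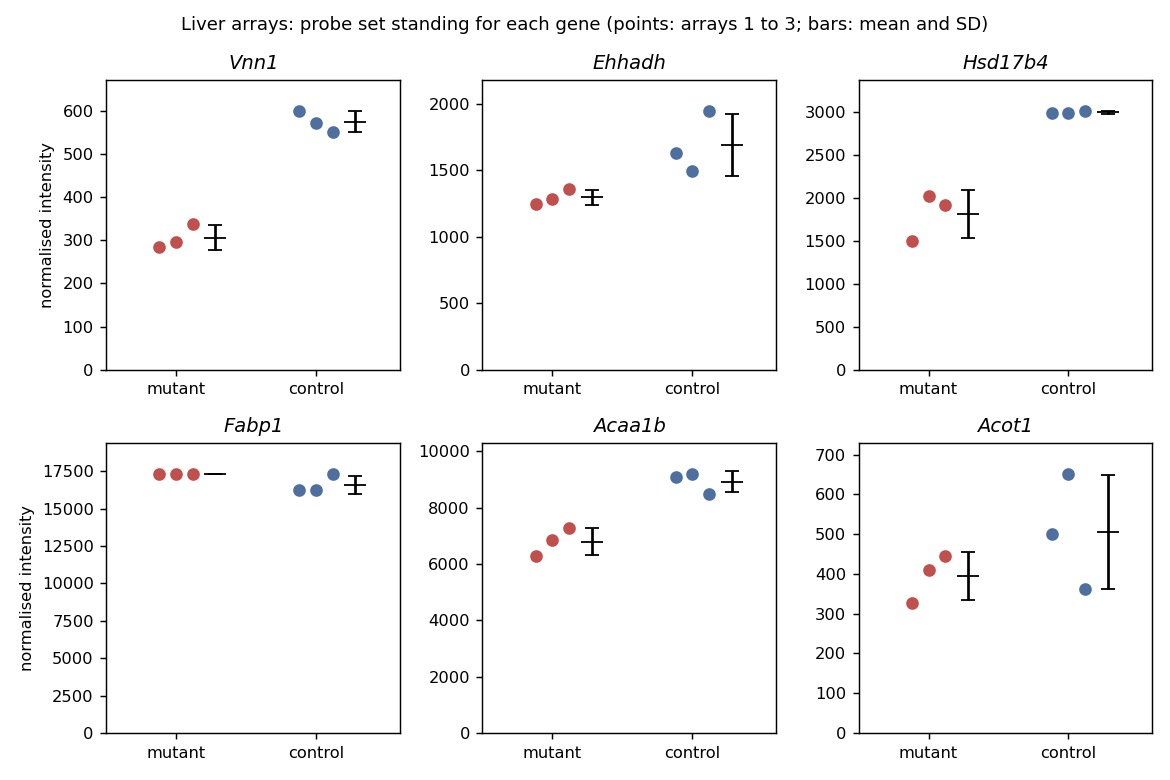
Quantile-normalised intensity of each gene in mutant and control liver, with 1 point per array (replicates 1 to 3 from left to right) and bars for the mean and SD of 3 arrays. Mutant and control arrays do not overlap for Vnn1, Ehhadh, Hsd17b4 and Acaa1b, and they overlap for Fabp1 and Acot1.

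Vnn1 showed the largest fall of the 6. Its normalised intensity was 285.8, 295.5 and 339.0 in mutant livers, against 601.3, 572.2 and 552.8 in control livers. Every mutant array was low, and the highest mutant stood well under the lowest control. The normalised means of 307 ± 28.3 in mutants and 575 ± 24.4 in controls (SD, n = 3 each) gave a log2 difference of -0.88 (SE 0.14, 95% interval -1.19 to -0.56), or 1.84-fold lower, with an adjusted p of 0.0180 in limma. The second Vnn1 probe set had normalised intensities of 85.2, 83.7 and 84.5 in mutants and 171.2, 214.8 and 152.8 in controls. Both probe sets thus fell, the second by 0.95 on the log2 scale (SE 0.18, limma adjusted p = 0.0372 over all probe sets, of which 0.614% fell). The first probe set differed by -0.90 without liver mutants 1 and 3, with an adjusted p of 0.341.

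Ehhadh, the peroxisomal enzyme that acts as hydratase, dehydrogenase and isomerase, did not pass the test. Its normalised intensity was 1245.2, 1282.5 and 1359.0 in mutant livers and 1628.2, 1493.8 and 1946.2 in control livers. The groups did not overlap, but control 3 was well above the other controls. The log2 difference was -0.37 (SE 0.13, 95% interval -0.66 to -0.082, adjusted p = 0.150 in limma). As deposited the groups overlapped, with 1344.5, 1360.3 and 1386.6 in mutants and 1445.7, 1271.9 and 2126.5 in controls, and the difference was -0.21 (limma adjusted p = 0.702).

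Hsd17b4, whose product handles very long and branched chains and intermediates of bile acids, fell in mutant livers. Normalised intensity was 1492.2, 2015.7 and 1912.0 in mutants, against 2983.1, 2979.2 and 3008.8 in controls. The controls lay close together and the mutants were spread, with mutant 1 the lowest. The log2 difference was -0.73 (SE 0.13, 95% interval -1.02 to -0.45), or 1.66-fold lower, with an adjusted p of 0.0215 in limma. Its second probe set had normalised intensities of 1082.1, 1302.6 and 1389.6 in mutants and 1701.6, 1448.0 and 1868.2 in controls. That probe set differed by -0.41 (SE 0.15) and did not pass (limma adjusted p = 0.177 over all probe sets), with no overlap between the groups. The first probe set differed by -0.55 without liver mutants 1 and 3 (limma adjusted p = 0.376). Hsd17b4 lies on chromosome 18, as does Ppargc1b, with 61 protein-coding genes between them in RefSeq's order (GRCm38.p6).

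Acaa1b, a peroxisomal thiolase that takes the last step of the cycle, had normalised intensities of 6282.2, 6839.8 and 7267.2 in mutant livers and 9086.9, 9189.2 and 8488.9 in control livers. All mutants lay below all controls, and the spread within each group was small. The log2 difference was -0.39 (SE 0.086, 95% interval -0.58 to -0.20), or 1.31-fold lower, with an adjusted p of 0.0379 in limma. When every probe set was tested on its own, the adjusted p was 0.0547, and without liver mutants 1 and 3 the difference was -0.41 (limma adjusted p = 0.393). Its near-identical relative Acaa1a can share probes with it: the 2 probe sets that list both genes differed by -0.46 (SE 0.14, limma adjusted p = 0.117) and -0.27 (SE 0.098, limma adjusted p = 0.190). The brightest probe set that lists Acaa1a alone had normalised means of 533 ± 76.0 in mutants and 465 ± 86.7 in controls, a difference of 0.20 (SE 0.17, limma adjusted p = 0.593). Another, dimmer one differed by 0.38 (SE 0.28, limma adjusted p = 0.540 over all probe sets), with overlap. Both were far dimmer than the probe sets that list both genes, whose normalised means in mutants were 4031 and 7806.

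Acot1 varied widely between arrays. Normalised intensity was 326.9, 409.7 and 445.3 in mutant livers, against 500.2, 650.8 and 363.1 in control livers. Control 3 lay among the mutants, so the groups overlapped. The log2 difference was -0.32 (SE 0.21, 95% interval -0.79 to 0.15, adjusted p = 0.462 in limma). A probe set shared with Acot2, the mitochondrial form of the same thioesterase family, differed by -0.58 (SE 0.28, limma adjusted p = 0.324), and Acot2 alone by -0.11 (SE 0.22, limma adjusted p = 0.841). Another Acot2 probe set was too dim to be tested in liver. With its probe sets averaged, Acot2 differed by 0.16 (SE 0.26, limma adjusted p = 0.797).

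Fabp1, the fatty acid carrier, was the member whose mean was not lower in mutants. Its deposited intensity was 18074.5, 18727.0 and 18128.7 in mutant livers, against 15415.9, 15283.1 and 17086.9 in control livers. As deposited all 3 mutants were above all controls, with a log2 difference of 0.20 (SE 0.099, limma adjusted p = 0.364). Fabp1 was the brightest of all probe sets on all 3 mutant arrays and on control 3, and the second brightest on controls 1 and 2, so quantile normalisation set its value by rank. The normalised values were accordingly 17311 on each mutant array and 16218, 16218 and 17311 on the control arrays, with a log2 change of 0.063 (SE 0.064, 95% interval -0.079 to 0.20, adjusted p = 0.653 in limma). The second Fabp1 probe set gave normalised intensities of 10518, 12340 and 11458 in mutants and 12448, 11458 and 10814 in controls, with overlap and a difference of -0.017 (SE 0.090, limma adjusted p = 0.951). At this brightness the deposited values do not tell whether the spots had room to rise.

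Scaling between the liver arrays decided which falls passed. Values as deposited and median centring gave nearly equal differences, and quantile normalisation gave larger falls for Hsd17b4 and Acaa1b. Vnn1 passed under each: its difference was -0.85 with values as deposited (adjusted p = 0.0368) and -0.85 with median centring (adjusted p = 0.0197). Hsd17b4 had -0.54 as deposited (limma adjusted p = 0.110) and -0.55 with median centring (limma adjusted p = 0.0703). Acaa1b had -0.18 under each of these, with limma adjusted p of 0.533 and 0.485. Once RNA quality, as the 3′ to 5′ ratio, entered the fit, none of these genes passed in limma, with differences of -0.94 for Vnn1 (adjusted p = 0.367), -0.54 for Hsd17b4 (adjusted p = 0.493) and -0.41 for Acaa1b (adjusted p = 0.487). Scaling also moved the balance of all calls in liver, from which members are read: 310 higher and 139 lower after quantile normalisation, but 279 higher and 18 lower as deposited, and 300 higher and 33 lower with median centring.

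**Figure D3:**
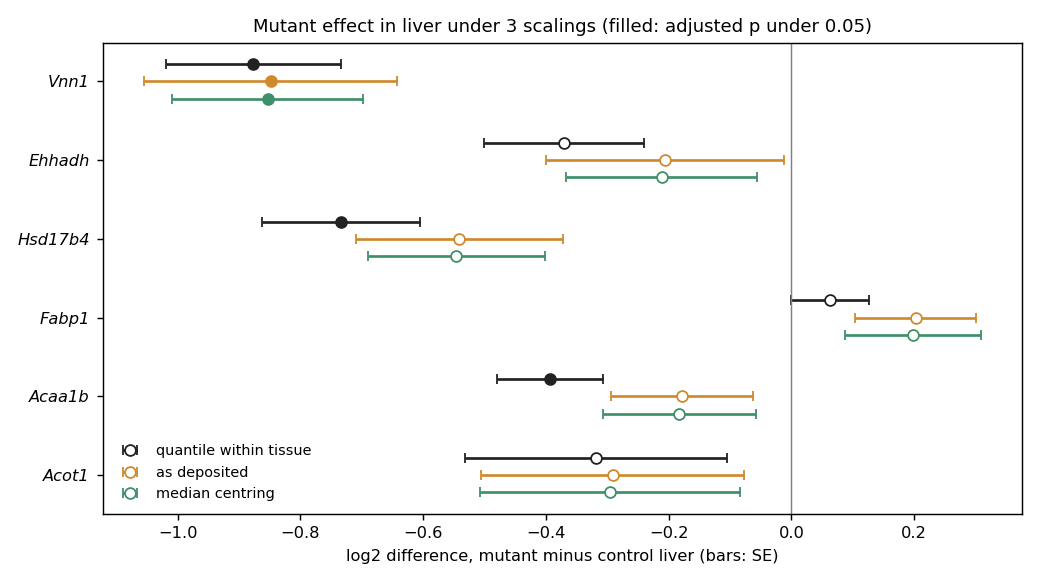
Log2 difference of mutant minus control liver for each gene under quantile normalisation within tissue, values as deposited and median centring, with bars for the SE and filled points where the limma adjusted p was under 0.05. Vnn1 is filled under all 3 scalings; Hsd17b4 and Acaa1b are filled under quantile normalisation only, and Fabp1 is the gene to the right of 0.

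In quadriceps muscle, 3 of the 6 genes were bright enough to be tested (a mean over the tissue's arrays above its 40th percentile, an intensity of 13.1), namely Vnn1, Ehhadh and Hsd17b4. None of them passed, beside 0.0152% of 13131 genes that passed in muscle, and 0 of the 3 had an unadjusted p under 0.05 in limma, while 559 genes did. Hsd17b4 had normalised intensities of 239.2, 259.7 and 243.6 in mutant muscles and 232.1, 275.5 and 228.0 in control muscles, with overlap and a log2 change of 0.016 (SE 0.12, 95% interval -0.26 to 0.29). Ehhadh had normalised intensities of 22.7, 18.2 and 27.0 in mutant muscles and 28.5, 39.8 and 38.5 in control muscles, so that mutants lay below controls here too, as for 5.22% of genes. Its difference was -0.42 (SE 0.20, 95% interval -0.86 to 0.026, adjusted p = 0.994 in limma). Vnn1 had normalised intensities of 11.1, 6.4 and 26.4 in mutant muscles and 25.6, 16.6 and 6.4 in control muscles, which overlapped across their whole range, with a difference of -0.081 (SE 0.33). The second Vnn1 probe set also overlapped in muscle and differed by -0.46 (SE 0.26, unadjusted p = 0.108 in limma).

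The 3 genes left out of the muscle test were at the dim end in both groups. Fabp1 had deposited intensities of 8.8, 3.3 and 1.8 in mutant muscles and 3.2, 15.1 and 6.5 in control muscles. Acaa1b had deposited intensities of 12.8, 0.8 and 10.6 in mutant muscles and 12.9, 7.0 and 9.0 in control muscles. Acot1 had deposited intensities of 7.1, 1.4 and 1.4 in mutant muscles and 5.4, 4.9 and 2.2 in control muscles. At these levels a change in muscle was not detectable.

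The mutant effect itself was compared between the tissues for the same 3 genes. Hsd17b4 differed: its effect was -0.73 in liver and 0.016 in muscle, an interaction of -0.75 (SE 0.18, 95% interval -1.12 to -0.38) with an adjusted p of 0.0495 in limma, just under the threshold. With 1 array left out in turn it passed only without liver mutant 2, and the difference ran from -0.83 to -0.61. It was -0.56 without liver mutants 1 and 3 together (limma adjusted p = 0.337). Of 11842 genes 1.42% passed this test: 0.262% had a lower effect in liver and 1.16% a higher effect. Vnn1, with -0.88 in liver and -0.081 in muscle, had a difference of -0.80 (SE 0.34, 95% interval -1.52 to -0.072) that did not pass (limma adjusted p = 0.273). The second Vnn1 probe set gave a smaller difference of -0.49 (SE 0.31, limma adjusted p = 0.486 over all probe sets). Ehhadh had an effect of -0.37 in liver and -0.42 in muscle, the interaction being 0.046 (SE 0.21, 95% interval -0.40 to 0.49, limma adjusted p = 0.946).

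The receptors themselves were followed beside their targets. Ppara had normalised intensities of 1121.8, 1721.7 and 999.22 in mutant livers and 2286.4, 2248.9 and 1657.4 in control livers. Mutant 2 lay within the range of the controls and the others below it. The log2 difference of Ppara was -0.71 (SE 0.20) and did not pass (limma adjusted p = 0.0859). Rxra, its partner, had normalised intensities of 891.45, 1364 and 865.06 in mutant livers and 1794.1, 1660.4 and 1559.6 in control livers, with a difference of -0.71 (SE 0.17) that did not pass either (limma adjusted p = 0.0558). For both receptors the lowest mutants were arrays 1 and 3, and without these the differences were -0.24 for Ppara and -0.29 for Rxra. Of the 5 PPAR and RXR genes tested in liver, 0 passed in limma and 4 had lower means, while 1 had a higher mean, by 0.71. The median of these receptors was -0.48, and it was -0.15 without liver mutants 1 and 3, where 6 were tested. In muscle the normalised intensity of Ppara averaged 31.7 ± 19.1 in mutants and 70.3 ± 17.6 in controls, a difference of -0.93 (SE 0.31, unadjusted p = 0.0138 and adjusted p = 0.994 in limma).

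Other known PPARalpha targets were lower on balance in mutant liver. Of 45 genes listed 39 were measured and 36 tested: 3 fell, 0 rose and 33 did not pass, and 31 of the 36 means were lower, with a median log2 difference of -0.36 against 0.01 for all genes. Those that fell were Retsat, Hadha and Slc27a2. Retsat, a retinol saturase, had normalised intensities of 2046.9, 2221.2 and 1908.5 in mutants and 3120, 4125.8 and 4287.4 in controls, a difference of -0.88 (SE 0.14, limma adjusted p = 0.0180). Hadha, the alpha subunit of the mitochondrial trifunctional protein, had normalised means of 1656 ± 175 in mutants and 2532 ± 285 in controls (SD, n = 3 each), a difference of -0.61 (SE 0.13, limma adjusted p = 0.0351). Slc27a2, a fatty acid transporter and very long chain acyl-CoA synthetase, had normalised means of 6358 ± 839 in mutants and 8782 ± 490 in controls, a difference of -0.47 (SE 0.11, limma adjusted p = 0.0415). With values as deposited 0 of the 36 passed in limma, 25 means were lower and the median was -0.20. Without liver mutants 1 and 3, 28 means were lower and the median was -0.26. The differences were then -0.75 for Retsat, -0.43 for Hadha and -0.36 for Slc27a2. The effect on Retsat was lower in liver than in muscle by 0.84 (SE 0.18, limma adjusted p = 0.0358 for the difference).

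The other peroxisomal oxidation genes were counted next. Of 34 listed, 31 were measured and 29 tested in liver: 2 fell, Acox2 and again Slc27a2, 0 rose, and 20 means were lower, with a median of -0.24. Acox2, the peroxisomal oxidase of branched chains and bile acid precursors, had normalised means of 1341 ± 247 in mutants and 2116 ± 31.2 in controls, a difference of -0.67 (SE 0.15, limma adjusted p = 0.0372). Without liver mutants 1 and 3, Acox2 differed by -0.54 (limma adjusted p = 0.393), and of 28 genes tested 0 passed and 21 means were lower, with a median of -0.16. With values as deposited 14 of the 29 means were lower and the median was 0.0012, so the direction of this list on balance depended on scaling. In that setting 0 fell, and Hao1, a peroxisomal glycolate oxidase named after its value was seen, passed as higher with 0.62 (limma adjusted p = 0.0433). In muscle 0 of 24 genes of this list and 0 of 34 PPARalpha targets passed in limma, with medians of -0.096 and -0.16.

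**Figure D4:**
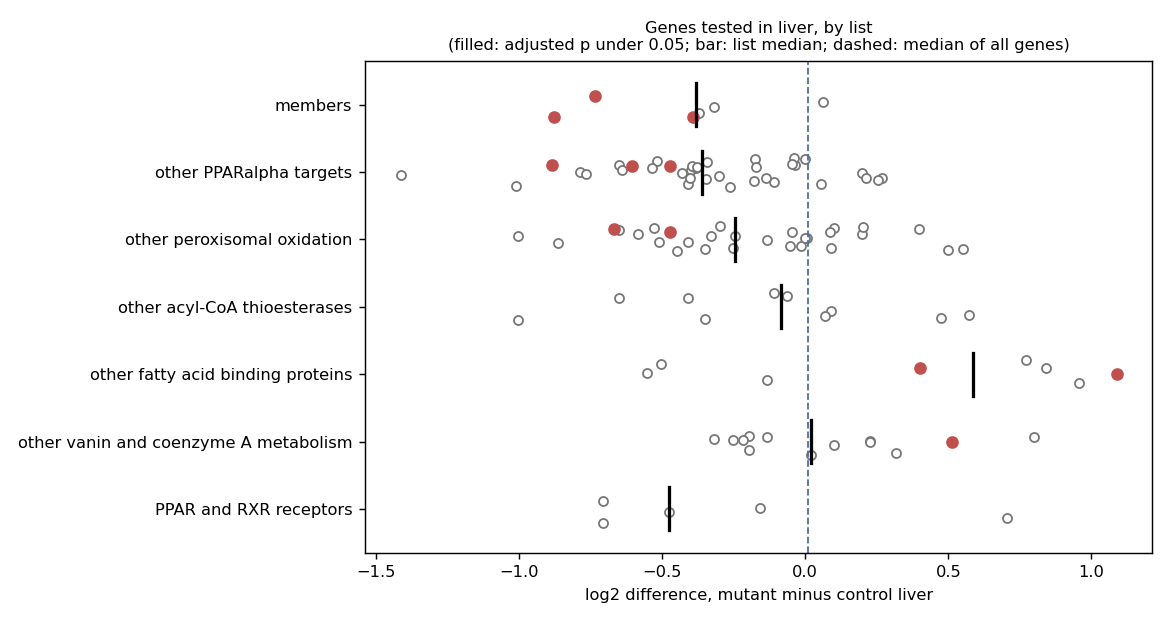
Log2 difference of mutant minus control liver for the genes tested in each list (quantile-normalised values), with the 6 genes in the top line, filled points for a limma adjusted p under 0.05, a bar at each list's median and a dashed line at the median of all genes (0.01). The medians of the PPARalpha target list (-0.36) and the receptors (-0.48) lie left of the dashed line and that of the fatty acid binding proteins (0.59) lies right of it.

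Relatives of Fabp1 included genes that rose. Of 10 other fatty acid and acyl-CoA binding proteins 8 were tested in liver: 2 rose and 0 fell, with a median of 0.59. Fabp2, the intestinal form, had normalised intensities of 2197.4, 2378.7 and 1755.4 in mutant livers and 952.28, 1125.4 and 869.2 in control livers, a difference of 1.09 (SE 0.15, limma adjusted p = 0.0180). Dbi, the acyl-CoA binding protein, had normalised means of 9254 ± 658 in mutants and 7009 ± 454 in controls, a difference of 0.40 (SE 0.089, limma adjusted p = 0.0389). Both also passed as deposited, with 1.23 for Fabp2 and 0.60 for Dbi. With a gene's probe sets averaged, Fabp2 passed (1.09, limma adjusted p = 0.0362) and Dbi did not (0.34, limma adjusted p = 0.119). The list median was 0.31 in that setting. The values without liver mutants 1 and 3 were 1.24 for Fabp2 and 0.41 for Dbi, and neither passed (limma adjusted p = 0.217 and 0.429).

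Among relatives of Vnn1 and Acot1 a single gene passed. Of 13 other genes of vanins and coenzyme A metabolism tested in liver, 1 rose, 0 fell and the median was 0.021. That gene was Nudt7, a peroxisomal enzyme that breaks down coenzyme A, with normalised intensities of 11874, 11674 and 12000 in mutant livers and 7850, 8434.6 and 8640.9 in control livers. Its difference was 0.51 (SE 0.075, limma adjusted p = 0.0180) in liver, and its effect was higher in liver than in muscle by 0.76 (SE 0.18, limma adjusted p = 0.0470 for the difference). With its probe sets averaged, the liver difference was 0.53 (SE 0.14) and did not pass (limma adjusted p = 0.0909). The liver difference of Nudt7 without liver mutants 1 and 3 was 0.52 (limma adjusted p = 0.341). The other vanin measured, Vnn3, chosen after its values were seen, had normalised means of 807 ± 118 in mutants and 789 ± 10.6 in controls, a difference of 0.021 (SE 0.14). Of 10 other acyl-CoA thioesterases tested 0 passed in limma, with a median of -0.087. The smallest p-values there were for the peroxisomal Acot6, with normalised means of 23.3 ± 8.99 in mutants and 62.4 ± 15.5 in controls (limma adjusted p = 0.0724), and for Acot13, with 0.47 (SE 0.16, limma adjusted p = 0.138).

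Macrophage markers were summed as a check on other cells in the liver samples. Of 13 Kupffer cell and macrophage markers, all measured and tested, 3 rose (Tyrobp, Lyz2 and Vsig4, named after their values were seen) and 12 had higher means. Their summed normalised intensity was 4382 to 5461 in mutant livers and 2764 to 3870 in control livers. Clec4f, which marks Kupffer cells, had deposited intensities of 501 to 785 in mutants and 352.8 to 443.5 in controls. Of 8 hepatocyte markers 1 fell (Tat, likewise named afterwards) and 0 rose. Of 3 adipocyte markers tested in liver 1 fell (Lipe, named afterwards), and 0 of 3 muscle and 0 of 3 red blood cell markers passed in limma. The adipocyte markers did not move together: 2 means were lower and 1 was higher, that of Fabp4 (0.77, SE 0.18, limma adjusted p = 0.0504). With a gene's probe sets averaged, Lipe differed by -0.37 and Fabp4 by 0.28, and neither passed (limma adjusted p = 0.321 and 0.432). Without liver mutants 1 and 3 none of the 5 marker genes that had passed did so in limma, with differences of 1.16 for Tyrobp, 0.9996 for Lyz2, 0.51 for Vsig4, -0.45 for Tat and -0.64 for Lipe. Tyrobp, Lyz2 and Lipe also passed as deposited, while Vsig4 (0.80, limma adjusted p = 0.0671) and Tat (-0.50, limma adjusted p = 0.153) did not. The part of these markers in the falls of Vnn1, Hsd17b4 and Acaa1b was not tested. In muscle the summed normalised intensity of 13 macrophage markers was 912 to 1563 in mutants and 1065 to 1360 in controls, and 0 of the 10 tested passed.

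The genes most like each of the 6 over the 6 liver arrays are given as a description. The highest Pearson r of normalised log2 values with Vnn1 were those of Suclg2 (0.997) and Xpnpep3 (0.995), with Hsd17b4 those of Wapl (0.998) and Mrfap1 (0.997), and with Acaa1b those of Cfi (0.995) and Oplah (0.993). For Ehhadh they were Asl (0.991) and Efcab14 (0.983), for Fabp1 Zc2hc1b (0.993) and Ogg1 (0.992), and for Acot1 Pald1 (0.988) and Tmem214 (0.988). With 6 arrays and 13327 genes compared, a high r alone sets no gene apart, and the points share 2 genotypes and the arrays' RNA quality. None of the 12 genes named was another of the 6.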

How the data were processed

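The authors deposited 1 linear intensity per probe set and array, for 12 arrays. The summary method and scaling are not given in the sources used. Per the labels' design text d-Chip was used for clustering. Of 45101 probe sets, 64 controls were left out. A single symbol was listed for 34945, several for 932 and none for 9160, from the platform annotation, and 34741 symbols were checked by Entrez identifier. The probe set with the highest mean log2 value stood for a gene, which gave 18193 genes. The analysis used log2(intensity + 16) after quantile normalisation within tissue, and control liver was compared with control muscle as deposited. Genes whose mean in the tissue exceeded the 40th percentile over probe sets were tested with limma 3.58.1 in R 4.3.3 (variance trend, Benjamini-Hochberg over all genes, threshold 0.05). Each tissue's fit left 4 residual degrees of freedom. The difference between tissues was the interaction in a fit of all 12 arrays with 8. The number of arrays limits the precision. The fits were checked on simulated data. In liver 5.56% of simulated 1.5-fold, 45% of 2-fold and 83.3% of 4-fold changes passed. The shares in muscle were 20.6%, 53.7% and 94.5%. A gene that did not pass may therefore still have changed. Alternatives were offsets of 1 and 64, other filters, scalings, probe set rules, variance models, array weights, a replicate block, RNA quality and leaving out arrays. Members, lists and tests were chosen with earlier results of these data known. Named were the 6 genes, Acaa1a, Acot2, Ppara and Rxra, list genes past a test (at most 5 per list and comparison, otherwise the 2 with the smallest p in liver), and the 2 genes most like each member. Figures used matplotlib 3.10.9 in Python 3.11.15.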

Additional observations from a re-analysis of the deposited data

Results flagged for a closer look

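The mutant effect on Hsd17b4, the peroxisomal D-bifunctional enzyme, differed between the tissues in limma's interaction test. Liver minus muscle was -0.75 (log2, SE 0.18, adjusted p = 0.0495), from -0.73 in liver and 0.016 in muscle. Its second probe set gave -0.30 (SE 0.23, limma adjusted p = 0.591 over all probe sets). The difference passed in 4 of 24 alternatives, with adjusted p from 0.0245 to 0.337 and the same sign in all 24.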

How the results depend on the processing

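In liver, 3 members fell, and 1 fell with values as deposited, median centring or a gene's probe sets averaged. With no variance trend, the replicate block, the 3′ to 5′ covariate, or without liver mutants 1 and 3 together, 0 fell. Leaving out 1 array gave 0 to 3, with 0 without mutant 1, mutant 3 or any control. Each of the 6 kept its sign in all 20 liver alternatives. Vnn1 ranged from -0.94 to -0.79 and passed in 11, Hsd17b4 from -0.82 to -0.54 in 8, and Acaa1b from -0.46 to -0.18 in 5. The count of 1 member with a lower effect in liver than in muscle was 0 with an offset of 1, no filter, values as deposited, median centring, probe sets averaged, no variance trend, every probe set on its own, the replicate block or without liver mutants 1 and 3. It was 2 with an offset of 64, where Vnn1 also passed (-0.76, limma adjusted p = 0.0404), and 0 to 1 with 1 array left out, with 1 only without liver mutant 2.

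Over all genes, 449 calls in liver became 219 with no filter, 297 as deposited, 0 with no variance trend (2332 with an unadjusted p under 0.05), 172 with the mean of probe sets, 993 in the fit of all 12 arrays, 11 with the replicate block, 2 with the covariate and 0 without liver mutants 1 and 3. With 1 array left out there were 0 to 735. The 2 calls in muscle became 0 with no variance trend (589 with an unadjusted p under 0.05), 1 with the mean of probe sets or the fit of all arrays, and 1 to 2 with 1 array left out. The 168 calls of the difference (137 higher and 31 lower) became 58 with no filter, 57 as deposited (55 higher and 2 lower), 58 with median centring (56 higher and 2 lower), 0 with no variance trend (1717 with an unadjusted p under 0.05), 85 with the mean of probe sets, 26 with the replicate block and 10 without liver mutants 1 and 3, and 12 to 391 with 1 array left out. The 8479 calls between control tissues became 16390 for every probe set on its own. With median centring, 4150 of those genes were higher and 3755 lower in liver.

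Signs turned only for uncalled differences. In muscle, Vnn1 was 0.12 without muscle mutant 2, in a range of -0.32 to 0.12. Hsd17b4 was -0.047 with the mean of probe sets and ran from -0.029 to 0.099 with 1 array left out. The tissue difference for Ehhadh was -0.16 with an offset of 64 and -0.039 to 0.15 with 1 array left out. The causes were not tested. No pairing by replicate number is stated in the labels, and 3 arrays per group are too few to exclude one. Deviations of arrays with the same number correlated with r of -0.11 to -0.0088 (liver) and 0.034 to 0.20 (muscle). In liver each mutant correlated best with another number. In muscle, mutants 2 and 3 correlated best with their own number, and mutant 1 with control 2 (0.085).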

Other observations

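Cyp4a14, an omega-hydroxylase of fatty acids and a known PPARalpha target, was named after its values were seen. It had the largest difference of the target list in liver in the fit reported and did not pass: normalised intensity was 716.53, 1106.4 and 300.69 in mutant livers and 988.3, 1157.6 and 4164 in control livers, a log2 difference of -1.41 (SE 0.54, limma adjusted p = 0.179). Control 3 stood far above the other arrays. Without liver mutants 1 and 3 the difference was -0.58, and with RNA quality in the fit it was -0.080. Nudt7 and Vnn1, which both break down coenzyme A or its products, had opposite signs in mutant liver, at 0.51 and -0.88.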
